A study of Mus musculus with 4 samples.

Results

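The Arp2/3 complex and zyxin were followed in the mouse line SVEC, which stems from endothelium, the lining of blood and lymph vessels, and was cultured with and without lipopolysaccharide (LPS), the outer membrane glycolipid of Gram-negative bacteria. The group was selected on its log2 ratios at 4 h and 24 h, known from an earlier reading of these arrays. Its members were all array spots whose single gene symbol was Actr2, Actr3, Zyx or began with Arpc and a digit. That rule found 14 of 32448 spots, for 7 of 11138 named genes: Actr3 (Entrez 74117), Arpc1a (56443), Arpc1b (11867), Arpc4 (68089), Arpc5 (67771), Arpc5l (74192) and Zyx (22793). Each gene had 2 adjacent spots of 1 oligonucleotide, so the spots of a gene share their sequence and no gene had another probe as a check. Actr2, Arpc2 and Arpc3 had no spot named for them alone and are not analysed here.

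RNA from control cells and from LPS-treated cells was amplified, labelled with Cy3 and Cy5 and hybridised together, after 4 h and after 24 h. Of the 2 arrays per time, one (the Cy5 array) had LPS in Cy5 and the other, the reversed array, had it in Cy3. The labels state a dose of 50 ng/ml on 3 of the 4 arrays, and name no separate cultures, so both arrays were treated as technical repeats of 1 RNA pair. Each SD is over these 2 arrays and says nothing about the spread between cultures. Values are log2 ratios of LPS over control, with the reversed array turned in sign. The direction is likely only, since it rests on the dyes in the labels, and every sign would turn if the ratio ran the other way.

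The Arp2/3 complex starts new actin filaments as branches on the sides of old ones. Its actin-related subunits, Arp2 (Actr2) and Arp3 (Actr3), act as the first units of the branch, and the subunits Arpc1 to Arpc5 hold them together and bind the mother filament. Proteins of the WASP and WAVE families switch it on below the membrane, where it drives lamellipodia, and in endothelial cells branched actin helps to close gaps between neighbours. Zyxin is no subunit of the complex. It is a LIM domain protein of focal adhesions and stress fibres that recruits Ena/VASP proteins and alpha-actinin to strained actin.

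Promoter sequence is shown for the member with the highest ratios (Arpc5), for the actin-related subunit measured (Actr3) and for the member that was lower at 4 h (Arpc4), since these genes of 1 complex had unlike ratios. Each run is the 250 bases before the RefSeq start on GRCm38.p6, 5′ to 3′ on the gene's strand, with matches to the motifs named below in capitals. Arpc5 lies at chr1:152766292-152766541 on the + strand, Actr3 at chr1:125435728-125435977 on the - strand and Arpc4 at chr6:113377863-113378112 on the + strand.
Arpc5: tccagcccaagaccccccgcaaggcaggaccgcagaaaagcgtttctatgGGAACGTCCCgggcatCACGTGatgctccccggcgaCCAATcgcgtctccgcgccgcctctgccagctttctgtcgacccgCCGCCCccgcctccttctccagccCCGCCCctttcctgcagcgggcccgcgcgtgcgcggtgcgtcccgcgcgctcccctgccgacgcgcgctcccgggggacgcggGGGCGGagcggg
Actr3: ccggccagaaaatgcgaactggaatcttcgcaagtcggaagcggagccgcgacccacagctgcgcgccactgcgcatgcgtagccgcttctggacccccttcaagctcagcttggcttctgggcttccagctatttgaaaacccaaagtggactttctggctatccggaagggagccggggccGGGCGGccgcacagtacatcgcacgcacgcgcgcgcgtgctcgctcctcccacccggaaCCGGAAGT
Arpc4: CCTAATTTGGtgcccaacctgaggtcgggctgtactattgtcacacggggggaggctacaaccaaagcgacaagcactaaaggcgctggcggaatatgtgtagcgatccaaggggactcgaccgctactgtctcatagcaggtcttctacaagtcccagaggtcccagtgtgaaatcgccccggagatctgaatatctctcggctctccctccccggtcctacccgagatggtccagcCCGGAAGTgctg

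Of the 7 members, 6 had such a window in the RefSeq table, and Arpc5l did not. The windows of the members held 57.2% (Arpc4) to 74.4% (Arpc5) G and C, where the median over all windows was 52.4%. Both strands were searched for 10 motifs, and the shares over all windows given here are not matched for G and C. The ETS letters CCGGAAGT were in the windows of Actr3, Arpc1a and Arpc4, and in 2.88% of all 32851 windows. A match to the NF-kB site was in Arpc5 alone among the members (7.25% of all windows), as were the E-box CACGTG (6.02%) and the CCAAT box CCAAT (33.8%). The GC box GGGCGG was in Actr3, Arpc1b, Arpc5 and Zyx (32.7%), and a CArG box, the site of serum response factor, was in Arpc4 (1.47%). The AP-1 letters TGANTCA were in Zyx (6.75%), 121 to 115 bases before the start, and are shown in capitals at chr6:42349696-42349725 on the + strand, because Zyx was the member whose arrays changed sides of 0 between the times.
Zyx: agtgcggacagTGAGTCAgttctccagcac

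No member had the cAMP response element TGACGTCA (1.55% of all windows), the TEAD letters GGAATG (12.6%) or the interferon-stimulated response element (2.98%). The ETS letters were in windows of members above 0 at 4 h, Actr3 and Arpc1a, and of Arpc4, below 0. Any link between motifs and ratios was not tested. A match describes letters in the window only. In Arpc5 the NF-kB, E-box and CCAAT matches do not overlap one another.

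After 4 h with LPS, the members lay on both sides of 0. To be called higher or lower, a gene needed a mean log2 ratio of 1 or more in size (2-fold), with neither array under 1.5-fold in that direction. By that rule Arpc5, Zyx, Actr3 and Arpc1a were higher, 4 of 7, where 8.74% of all genes were, and Arpc4 was lower, 1 of 7, where 5.77% were. Arpc5l and Arpc1b met neither. The members were chosen with these ratios known, so the counts describe them and no test was made. In such whole-culture RNA, fewer cells of a type and less RNA per cell cannot be told apart.

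Actr3, the Arp3 subunit, read 0.92 and 1.53 on its 2 spots of the 4 h Cy5 array, and 3.21 and 2.78 on those of the reversed array. All 4 readings were above 0, and the reversed array was the higher one. The mean was 2.11 ± 1.25 (SD, 2 arrays), or 4.32-fold. After 24 h the array means were 0.53 and -0.08, on both sides of 0, with a mean of 0.23 ± 0.43.

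The Arpc1 subunit, a propeller-shaped protein that contacts the activators, is made from either of the genes Arpc1a and Arpc1b, which lie next to each other on mouse chromosome 5. At 4 h Arpc1a read 2.74 and 2.56 on the Cy5 array and 1.33 and 0.75 on the reversed array, for a mean of 1.84 ± 1.14 (3.59-fold). Arpc1b read 0.15 and 0.30, then 0.21 and 0.14, for a mean of 0.20 ± 0.03. Arpc1a was thus above Arpc1b on both 4 h arrays, by 2.42 and 0.86.

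At 24 h the order of this pair was the opposite on both arrays. Arpc1b read 1.14 and 0.83 on the Cy5 array and 0.69 and 0.64 on the reversed one, a mean of 0.82 ± 0.23 (1.77-fold), short of the rule. Arpc1a had array means of 0.34 and 0.11 and a mean of 0.22 ± 0.16. The difference, Arpc1a minus Arpc1b, was 1.64 ± 1.10 at 4 h and -0.60 ± 0.07 at 24 h. A difference within an array does not move when the array is centred on other transcripts, and it shows unequal ratios, not which level was higher.

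Arpc4, which with Arpc2 forms the core that binds the mother filament, was the member below 0 at 4 h. Its spots read -0.85 and -1.13 on the Cy5 array and -1.07 and -1.01 on the reversed one. The arrays differed by little, and the mean was -1.02 ± 0.04, or 2.02-fold lower. The value lay just inside the rule: it was -0.91 with arrays scaled to one spread and with quantile normalization, and -0.99 without the reversed array, which ended the call each time. After 24 h Arpc4 read 1.12 and 0.91 on the first array and -0.30 and -0.40 on the reversed one, so that the arrays lay on opposite sides of 0 (mean 0.33 ± 0.97).

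The Arpc5 subunit also comes in 2 forms, Arpc5 and Arpc5l, and Arpc5 had the highest mean ratio of all members at both times. At 4 h its spots read 4.69 and 4.21 on the Cy5 array and 3.25 and 4.10 on the reversed array. All were far above 0, with a mean of 4.06 ± 0.55 (16.7-fold), which ranked 33 among 11138 genes. At 24 h they read 2.65 and 2.41, then 0.82 and 0.88, for a mean of 1.69 ± 1.19 (3.23-fold, rank 101).

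Arpc5 was the only 1 of the 7 members past the 2-fold rule at 24 h, where 1.68% of all genes were higher and 0.799% lower, and so the only 1 higher at both times, as 0.413% of genes were. Without the Cy5 array its 24 h value was 0.85, and it did not reach the rule. With the reversed array left unturned, so that LPS effects cancel in the mean, 189 genes met the rule at 24 h and 204 at 4 h. Of the members, 0 did at either time. A gene whose turned arrays lie on the same side of 0 cannot meet the rule unturned. That held for every member at 4 h, and for Arpc5, Arpc1a, Arpc1b and Zyx at 24 h. For these the outcome was fixed, and it is no check on their calls. As processed, 187 genes were higher and 89 lower at 24 h, and 973 and 643 at 4 h. Arpc5l lay just outside the rule at 4 h, with spots at 1.58 and 0.50 on the first array and 1.01 and 0.84 on the reversed one (mean 0.98 ± 0.08, 1.98-fold). It reached the rule on the Cy5 array alone, at 1.04. At 24 h its array means were 0.59 and -0.11. Arpc5 lay above Arpc5l on all 4 arrays, by 3.08 ± 0.47 at 4 h and 1.45 ± 0.69 at 24 h.

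Zyx had the second highest 4 h ratio of the members. Its spots read 4.42 and 4.86 on the Cy5 array and 3.13 and 1.94 on the reversed array, all above 0. The mean was 3.59 ± 1.49 (12.04-fold), at rank 62 of all genes. At 24 h the spots read -0.45 and -0.79 on the first array and -0.59 and 0.26 on the reversed one, for a mean of -0.39 ± 0.32. The spots of the reversed 24 h array thus lay on both sides of 0, and 3 of 4 readings were below it.

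**Figure D1:**
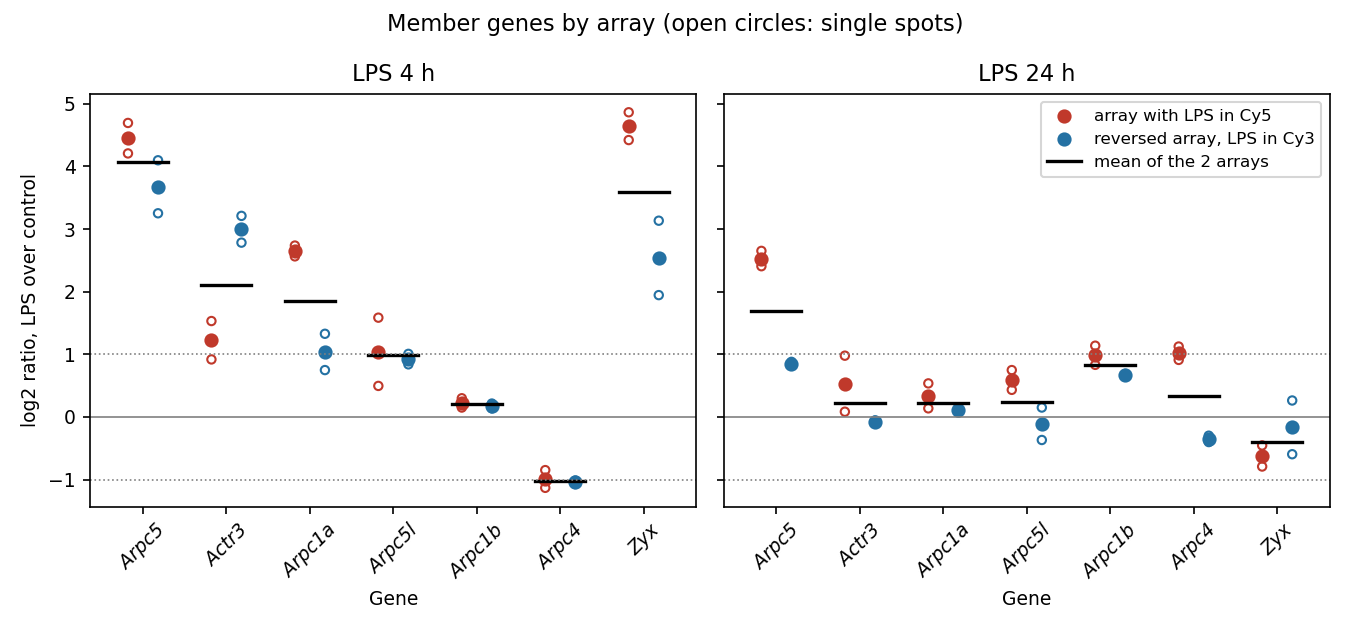
Log2 ratio of LPS over control for each member gene after 4 h and 24 h. Open circles are single spots, filled circles the mean of an array (red, LPS in Cy5; blue, reversed array), black bars the mean of both arrays, and dotted lines mark 2-fold. Arpc5 and Zyx stand at 4.06 and 3.59 at 4 h, Arpc4 at -1.02, and at 24 h only Arpc5 has a mean beyond 1.

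The order of the members at 4 h was only partly larger than the spread between arrays. The array ranges of Arpc5, Zyx, Actr3 and Arpc1a each overlapped with that of the next gene in the order, and those of Arpc1a and Arpc5l met at 1.04. Arpc5l, Arpc1b and Arpc4 were apart from one another on both arrays. At 24 h the ranges of neighbouring genes overlapped from Arpc5 down to Arpc1a, and Zyx lay below Arpc1a on both arrays.

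The precision of a value can be read from its spots and from its pair of arrays. The 2 spots of a member on 1 array differed by a median of 0.44 and 0.43 on the 4 h arrays, where the median over all 12172 such pairs was 0.20 and 0.27. At 24 h the members' medians were 0.32 and 0.08, and those of all pairs 0.25 and 0.27. The largest gap within a pair was 1.19, for Zyx on the reversed 4 h array. The halved difference between the arrays of a time, Cy5 array minus reversed array, holds dye effect and array noise, which cannot be told apart with 1 array per orientation. It was largest in size at 4 h for Zyx (1.05), Actr3 (-0.89) and Arpc1a (0.81), and at 24 h for Arpc5 (0.84) and Arpc4 (0.68). At 4 h it was 0.02 for Arpc1b and 0.03 for Arpc4.

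**Figure D2:**
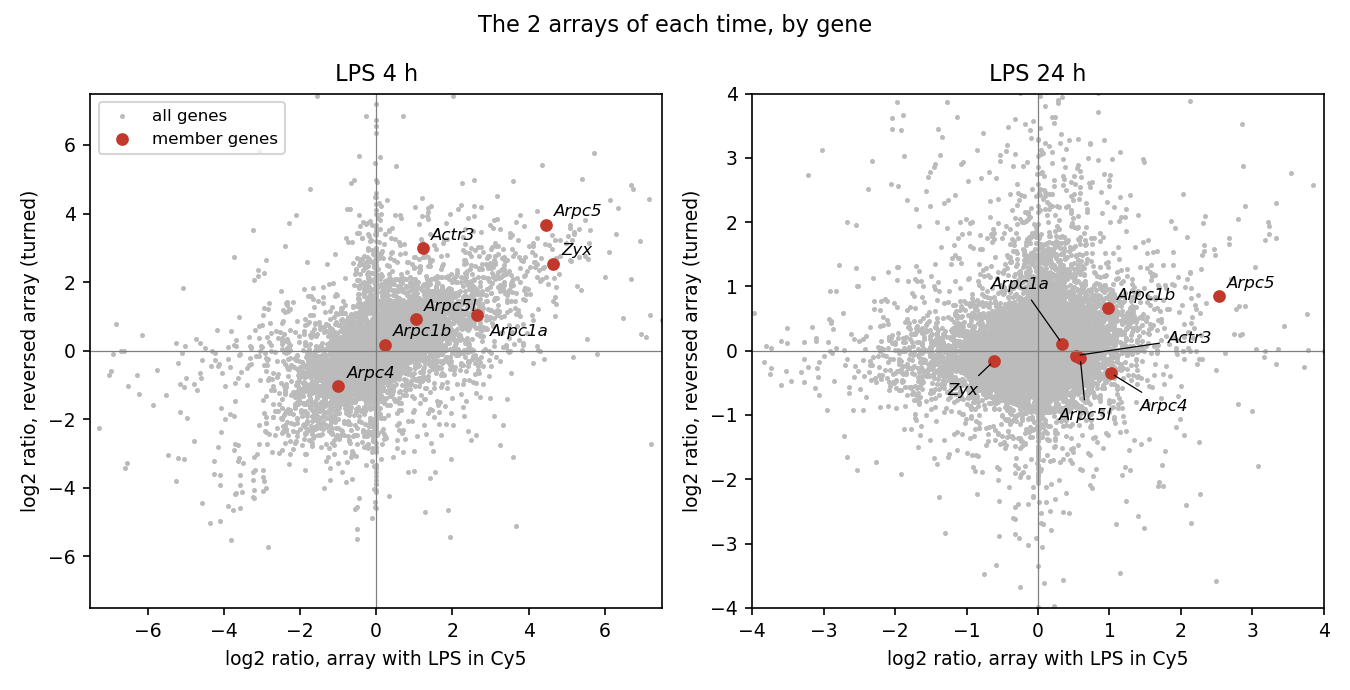
Each gene's log2 ratio on the Cy5 array (x axis) and on the reversed array after turning (y axis), all genes in grey and members in red. The axes end at 7.5 for 4 h and 4 for 24 h, which leaves out 6 and 46 genes. At 4 h all members but Arpc4 are above 0 on both arrays, and at 24 h Actr3, Arpc5l and Arpc4 are above 0 on the first array only.

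Compared between the times, Zyx and Arpc5 had the largest drops in ratio. A gene counted as different when its means differed by at least 1 on the log2 scale and both arrays of a time lay beyond both of the other. By that rule 4 of 7 members were lower at 24 h, where 9.99% of all genes were, and 1 was higher, where 8.23% were. Those lower were Zyx, by -3.98, Arpc5, by -2.37, Actr3, by -1.88, and Arpc1a, by -1.62. Arpc4 was the 1 higher, by 1.35, and Arpc5l (-0.74) and Arpc1b (0.62) did not meet the rule. With arrays centred on abundant transcripts, 1 member was lower and 3 were higher at 24 h, in place of 4 and 1, and without the 24 h Cy5 array 0 were higher. The median of the members was 1.84 at 4 h and 0.24 at 24 h, beside -0.0013 and 0.02 over all genes, and the members above 0 on both arrays numbered 6 and 3. On single arrays the members' median was 1.22 and 1.04 at 4 h and 0.59 and -0.08 at 24 h. Whether the times shared control RNA is not given in the sources used here.

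**Figure D3:**
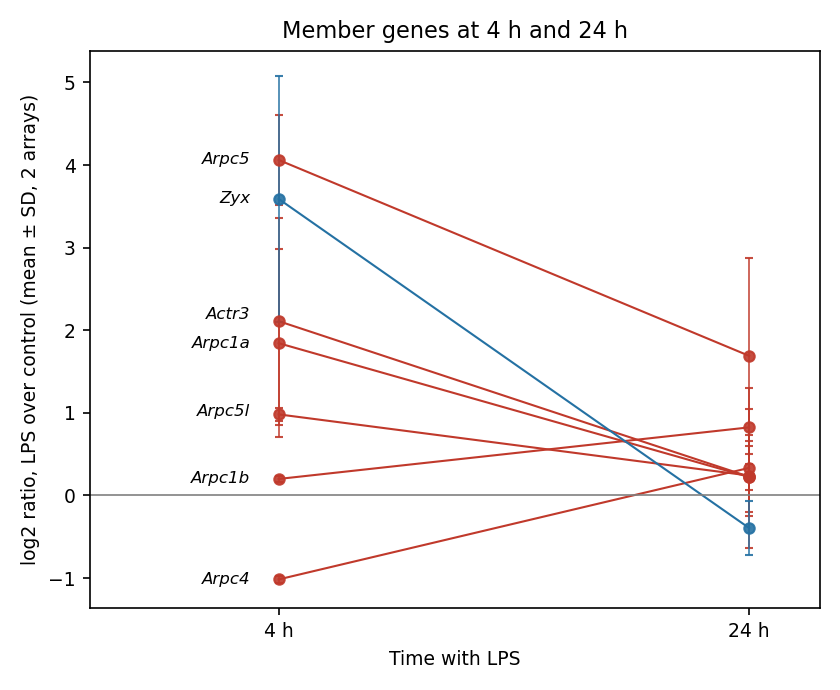
Mean log2 ratio of each member at 4 h and 24 h, with the SD over 2 arrays as error bars (Arp2/3 subunits in red, Zyx in blue). The lines of Zyx, Arpc5, Actr3 and Arpc1a run down by 1.62 to 3.98 and that of Arpc4 runs up by 1.35.

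The 4 h ratios depend on what an array is centred on. A list of abundant transcripts outside the actin network held such genes as Gapdh (4.39 ± 1.003 at 4 h) and Ppia (5.76 ± 1.32). Of its 38 measured genes 25 were higher and 2 lower at 4 h, beside 8.74% and 5.77% of all genes. The list median was 2.06. At 24 h 2 were higher, beside 1.68% of all genes, with a list median of 0.21. The part of these transcripts in the members' 4 h ratios was not tested. Centring each array on this list lowered every 4 h mean by 2.04 and every 24 h mean by 0.20. Arpc5, at 2.02, and Zyx, at 1.55, then remained past the rule, Actr3 lay at 0.07, Arpc1a turned in sign to -0.20, and Arpc5l, Arpc1b and Arpc4 were lower at -1.06, -1.84 and -3.06. The members' median was then -0.20 at 4 h. The differences among members stay the same under this centring.

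**Figure D4:**
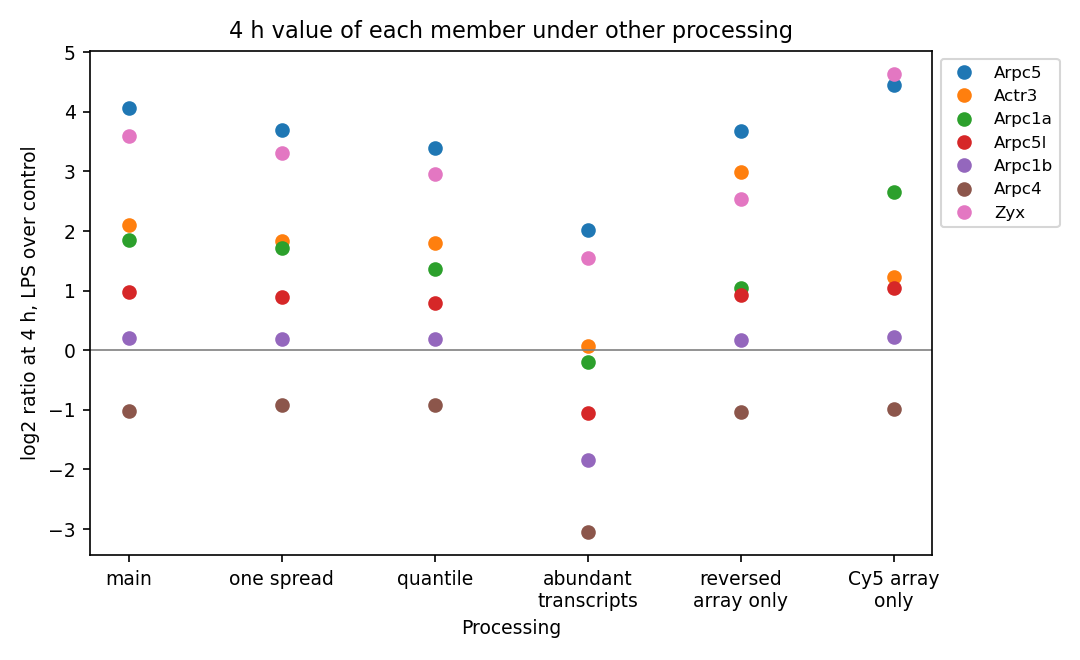
Each member's log2 ratio at 4 h (y axis) as first processed, with arrays scaled to one spread, after quantile normalization, centred on abundant transcripts, and on each array alone. Arpc5 and Zyx are above 1 in all 6 columns, and Arpc1a, Arpc5l and Arpc1b are below 0 only with centring on abundant transcripts.

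As a list, the measured genes that switch the complex on had a median near 0, though single genes lay farther from it. Of 19 listed genes of the WASP and WAVE families and their adaptors, only 9 were measured. Of these 9, 0 met the 2-fold rule at either time, with medians of 0.03 at 4 h and 0.12 at 24 h. Wasl, which encodes N-WASP, the widely expressed activator, lay at -0.98 ± 0.15 at 4 h, just short of the rule, and 0.10 ± 0.14 at 24 h. Was, its relative of blood cells, lay at -0.83 ± 2.04 and -0.23 ± 0.66. The WAVE gene Wasf1 lay at 0.40 ± 0.24 and -0.09 ± 0.41, and the adaptor gene Nck1 at 0.46 ± 0.51 and 0.06 ± 0.08. With centring on abundant transcripts all 9 were lower at 4 h, with a median of -2.01, and on the 4 h Cy5 array alone 2 were lower. With exact zeros taken as not measured, 1 was lower at 4 h.

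Among 11 measured genes of stabilisers and inhibitors of the complex, 2 were higher and 0 lower at 4 h, beside 8.74% and 5.77% of all genes. Gmfb, whose product glia maturation factor separates branches by binding the complex, was higher at 2.20 ± 0.61. So was the coronin gene Coro1b, at 1.56 ± 0.99. Coronins dampen the complex at the leading edge. At 24 h only Coro1a met the rule, at 1.05 ± 0.15, a coronin of leukocytes, while Coro7 lay at -1.68 ± 1.99 with arrays at -3.09 and -0.27. Centred on abundant transcripts, 0 of the list were higher and 9 lower at 4 h, Coro1b turned in sign, and 0 were higher at 24 h. Without the Cy5 array Coro1b, at 0.86, did not reach the rule at 4 h, and without the reversed array Coro1a, at 0.94, did not at 24 h.

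Relatives and partners of zyxin were divided. Of 14 measured, Csrp2, a LIM protein of the cysteine-rich family that includes a zyxin partner, was higher at 4 h (1.72 ± 0.54), as was the zyxin relative Ajuba (1.34 ± 0.14, with its 2 oligonucleotides at 1.73 and 0.95). Limd1, another relative, at -1.26 ± 0.66, and Nebl, at -1.25 ± 0.68, were lower. Csrp1, of the same family as Csrp2, lay at -0.08 ± 0.50 at 4 h and -0.37 ± 0.83 at 24 h. The Ena/VASP genes Vasp, Enah and Evl lay at -0.79 ± 0.66, -0.51 ± 0.03 and 1.01 ± 0.98 at 4 h. None of these met the rule at either time. The alpha-actinin gene Actn1 had a mean of 1.91 ± 2.42 at 4 h and 2.30 ± 3.01 at 24 h, with arrays at 3.62 and 0.20 and then at 0.17 and 4.43, and met the rule at neither time. Tes, which binds zyxin, lay at 1.32 ± 1.20. The list's median was 0.03 at 4 h and 0.05 at 24 h, where 0 met the rule. With centring on abundant transcripts 0 were higher and 10 lower at 4 h, and Csrp2 and Ajuba turned in sign. On the Cy5 array alone 6 were higher at 4 h, and on the reversed array alone 1 was lower.

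In the focal adhesion list, 0 genes met the rule at 24 h. At 4 h 3 of 17 were higher and 1 lower, beside 8.74% and 5.77% of all genes. The higher ones were the integrin chain gene Itgb1 (3.77 ± 0.94), the kinase-like scaffold gene Ilk (1.43 ± 0.01) and Pdlim1 (1.12 ± 0.55), and the fibronectin receptor chain gene Itga5 was lower (-1.61 ± 0.35). With centring on abundant transcripts 1 was higher and 14 lower at 4 h, and Ilk and Pdlim1 turned in sign. Pdlim1 lay at 1.04 ± 0.78 at 24 h, with 1 array at 0.49.

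Of 18 genes of actin filament turnover, 4 were higher and 0 lower at 4 h, beside 8.74% and 5.77% of all genes. The list median was 0.53. Tmsb4x, the actin monomer-binding thymosin, lay at 3.11 ± 0.52, the cofilin helper gene Wdr1 at 2.52 ± 0.56, the cofilin relative Dstn at 2.16 ± 0.62 and the filament end-capping gene Tmod3 at 1.54 ± 0.21. With centring on abundant transcripts 0 were higher and 11 lower at 4 h, so that none of these 4 met the rule, and Tmod3 turned in sign. At 24 h 0 of the 18 met the rule, and Dstn lay at 0.91 ± 0.90 and Tmod3 at 0.93 ± 0.47.

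Formins, which build unbranched filaments, had 0 of 7 measured genes past the rule at either time. Diaph1 lay at -0.55 ± 0.07 at 4 h, and Diaph3 at 1.73 ± 2.81 at 24 h with arrays at 3.72 and -0.26. Fmn1 lay at 1.29 ± 1.25 at 4 h and Daam1 at 0.02 ± 1.52. With centring on abundant transcripts 6 were lower at 4 h.

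Actin-related proteins outside the complex numbered 5. Actr6, a subunit of a chromatin remodeller, was lower at 4 h (-1.02 ± 0.23), and Actr8, Actr1a and Actl6a lay at 0.92 ± 0.54, 0.62 ± 0.54 and 0.39 ± 0.51. The call of Actr6 ended with arrays scaled to one spread, with quantile normalization and without the reversed array (-0.86), and with centring on abundant transcripts all 5 were lower. Over the 7 actin lists described here, 11 of 81 genes were higher and 4 lower at 4 h, 13.6% and 4.94%, beside 8.74% and 5.77% of all genes. At 24 h 1 was higher, 1.23%, and 0 lower, beside 1.68% and 0.799% of all genes. The medians of the 81 genes were 0.17 at 4 h and 0.18 at 24 h.

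**Figure D5:**
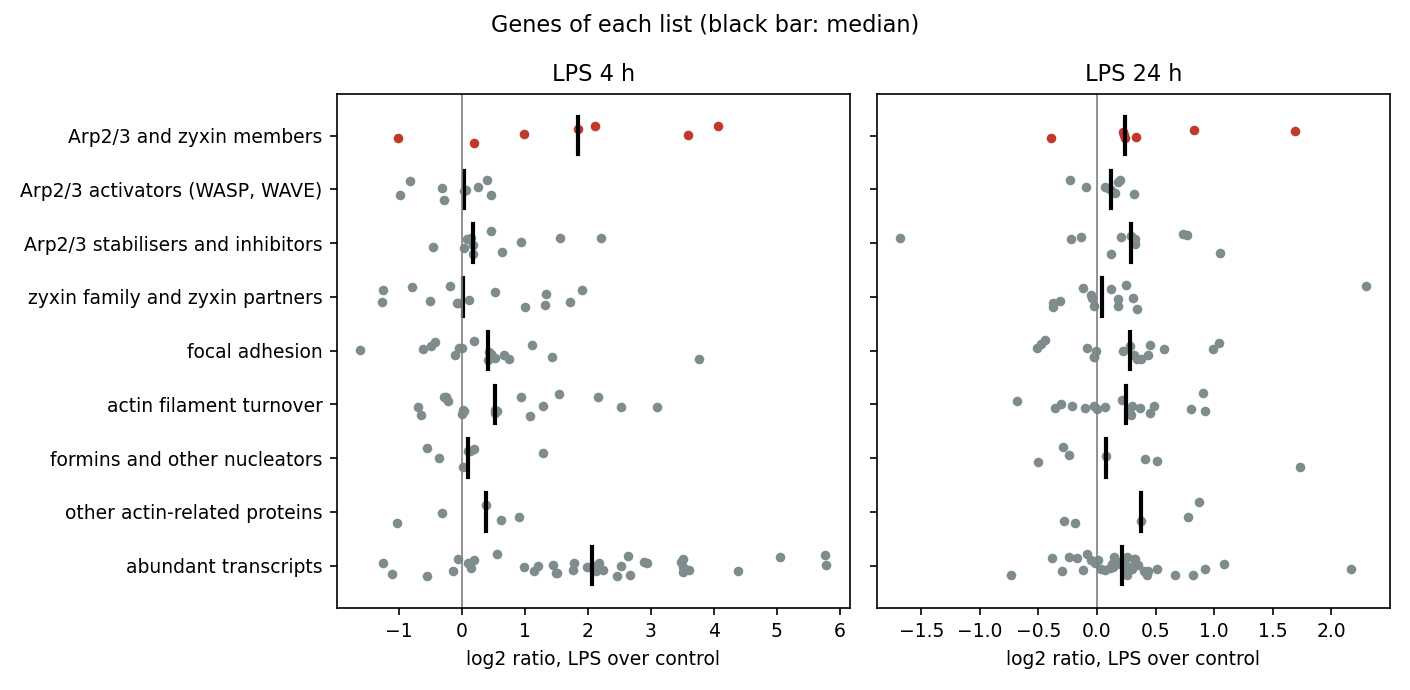
Mean log2 ratio at 4 h and 24 h of each measured gene of the members (red) and of the lists (grey), with black bars at the medians. The medians at 4 h are 1.84 for the members and 2.06 for the abundant transcripts, against 1.22 and 2.39 on the Cy5 array and 1.04 and 1.69 on the reversed array, and the list of actin filament turnover has a median of 0.53.

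The genes with the profile nearest to the Arp2/3 members were found by Euclidean distance over the 4 arrays, among 8132 genes without an exact 0. Nearest to the median profile of the 6 subunits were Rfc1 (distance 0.08), 2210016F16Rik (0.16), Hsbp1 (0.19) and Ddb1 (0.28), with 4 h means of 0.99 to 1.14 and 24 h means of 0.42 to 0.50. Nearest to Zyx were Emc2 (0.29), Aldh1a1 (0.47), Timp3 (0.65), Snap91 (0.66) and Arhgap45 (0.68). Among the members themselves the closest pair was Arpc1b and Arpc5l, at 1.41, and the farthest was Arpc4 and Arpc5, at 7.45. Likeness over 4 arrays of 2 RNA pairs is a description only.

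Genes next to the members in RefSeq order were also read. Apart from Arpc1a and Arpc1b themselves, 6 of these neighbours were measured, and 0 met the 2-fold rule at either time. Apobec4, beside Arpc5, lay at -0.22 ± 0.58 at 4 h and 0.73 ± 0.0025 at 24 h, Epha1, beside Zyx, at 0.19 ± 0.31 and 0.38 ± 0.30, and Rpl35, beside Arpc5l, at 1.31 ± 1.85 and 0.28 ± 0.07.

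Cell type markers gave counts beside these values. Over all genes, 8.74% were higher and 5.77% lower at 4 h, and 1.68% and 0.799% at 24 h. Ratios hold no levels, so whether endothelial markers were present could not be read. Of 8 endothelial markers 1, Cdh5, was lower at 4 h, with its 2 oligonucleotides at 0.27 and -7.21, and list medians of -0.04 at 4 h and -0.06 at 24 h. Mural and fibroblast markers had 3 of 7 higher and 1 lower at 4 h and 1 higher at 24 h, with means from -1.40 to 1.92 and from -0.37 to 1.14. Leukocyte markers had 0 of 6 past the rule at 4 h and 1, Coro1a, at 24 h, and epithelial markers 1 of 6 lower at 4 h. With centring on abundant transcripts 0 markers of any of these lists were higher at either time, and 8 endothelial, 4 mural and fibroblast, 6 leukocyte and 5 epithelial markers were lower at 4 h. Their part in the members' ratios was not tested.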

How the data were processed

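The deposited table holds a log2 ratio of the 2 dyes for each spot, which the authors gave without intensities. The scale was read from the values, since the fold it stands for is a multiple of 0.01, within 2 hundredths of that step, in 99.96% of spots or more on each array. How the scans were background-corrected and normalized is not given in the sources used here. Deposited column medians were 0, and the SD over spots ranged from 0.978 to 1.44. The arrays of a pair correlated across genes, after turning, at 0.48 (4 h) and 0.10 (24 h).

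Spots were named from the platform annotation, in which 24344 had 1 symbol, 98 several and 8006 none. Arrays were turned, centred on their median, and spots of a gene averaged (Python 3.11.15, pandas 2.3.3). Exact zeros numbered 2041 to 5307 spots an array, and no member spot was among them. They bear on other genes, and so on the shares over all genes and the medians over all spot pairs. With zeros taken as not measured, 1005 genes were higher at 4 h, in place of 973. With 1 RNA pair a time and members chosen for their ratios, no test was made. The number of arrays limits the precision.

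Members and lists were chosen with earlier results of these data known. Named genes were all members, up to 4 genes per list, those farthest from 0 at either time, and the 5 nearest profiles. Limd1 and Nebl, as calls, and Csrp1, Vasp, Enah and Evl, from the zyxin list, were named after their values were seen. So were the motifs chosen and the RefSeq neighbours read. For the marker lists, counts are given. A further list and 1 of the nearest profiles are not reported here. Sequences are from the RefSeq promoter table (GRCm38.p6), without bases after the start.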

Additional observations from a re-analysis of the deposited data

Results flagged for a closer look

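Zyx stood out because both of its 4 h arrays were above 0, at 4.64 and 2.54, and both of its 24 h arrays below it, at -0.62 and -0.17. The difference, 24 h minus 4 h, was -3.98 on the log2 scale. That difference was not tested, since each time is 1 RNA pair. Over all genes 729, or 6.55%, had this pattern, and 917, or 8.23%, had the opposite one. At 24 h, 1 of the 4 spot readings of Zyx was above 0.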

How the results depend on the processing

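Arrays as deposited, the median over spots and exact zeros taken as not measured gave the same member counts as the processing described. These settings could not change those counts, so they are no check on them. Deposited column medians were 0, each member had 2 spots, whose median is their mean, and no member spot was at exactly 0. Centring on abundant transcripts gave 2 members higher and 3 lower at 4 h (4 and 1 as processed), a 4 h median of -0.20, Arpc1a at -0.20, and 3 members higher and 1 lower at 24 h than at 4 h. Over all genes it gave 87 higher and 9485 lower at 4 h, 105 and 225 at 24 h, and 9015 higher and 104 lower at 24 h than at 4 h. This subtracts 1 constant per array, with a mean of 2.04 at 4 h and 0.20 at 24 h. Means above 0 but below that constant turn in sign. At 4 h these include genes past the 2-fold rule as processed, such as Arpc1a at 1.84. Scaling to one spread gave 0 members lower at 4 h and 142 genes lower at 24 h. Quantile normalization gave 0 members lower and a median of 1.37 at 4 h, 2 members higher at 24 h, 2 higher at 24 h than at 4 h, and 411 genes higher and 148 lower at 24 h.

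A 1.5-fold threshold on the mean asked of each array only that it not lie on the other side of 0. With it 2 members were higher at 24 h. Over all genes 1892 were higher and 1511 lower at 4 h, and 1000 and 770 at 24 h. A 3-fold threshold on the mean kept the limit of 1.5-fold on each array. With it 0 members were lower at 4 h, and the gene counts were 569, 306, 73 and 15. The mean alone gave 388 genes higher and 280 lower at 24 h. Leaving out each array in turn gave 4 to 5 members higher and 0 to 1 lower at 4 h, 0 to 2 higher and 0 lower at 24 h, 0 to 1 higher and 3 to 5 lower between the times, and medians of 1.04 to 1.22 and -0.08 to 0.59. Over all genes it gave 1376 to 1476 higher and 996 to 1007 lower at 4 h, 502 to 771 and 310 to 818 at 24 h, and 923 to 1576 and 1405 to 1582 between the times. With 1 array left the rule asks for 2-fold on that array alone, which admits more genes. The cause of the other changes was not tested. No paired test was made, since the 2 arrays of a time were treated as technical repeats of 1 RNA pair. Signal over background is unknown without intensities, so faint spots could not be told from bright ones.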
